A study of Mus musculus with 2 samples.

Results

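The 10 genes described here encode cytokines that T cells make, namely *Il2*, *Il4*, *Il10*, *Il21*, *Ifng*, *Tnf*, *Lta*, *Ltb*, *Tgfb1* and *Csf1*, and all 10 were among the 32285 genes of the deposited matrices. They were chosen by name, and each was followed by its level and by the share of cells with a transcript in 4 groups of T cells and 2 genotypes. The cells came from 1 Foxp3Cre WT mouse and 1 Foxp3-Cre Tet2/3 fl/fl mouse of the severely affected class (DKO-severe), both 14 weeks old. Both mice carry Cre as a YFP fusion expressed from the Foxp3 locus. In the second mouse it directs deletion of the TET2 and TET3 dioxygenases to cells that express Foxp3. The paper notes that expression of this Cre can be leaky, at low levels during blood cell development, so deletion in other cells is possible. T cells carrying TCRβ were sorted from spleen pooled with cervical and inguinal nodes, marked with 1 hashtag antibody per mouse and sequenced by 3' single-cell RNA-seq, in which a unique molecular identifier (UMI) counts 1 captured transcript. With 1 mouse per genotype no test of genotype was possible, the mouse and the genotype cannot be told apart, and every interval below covers counting error only.

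Cytokines are secreted or membrane-bound proteins by which T cells act on other cells, and each T helper type is known for its own set. *Il21* and *Il4* are made by T follicular helper cells and act on B cells, *Ifng* marks the type 1 response and cytotoxic cells, and *Il10* and *Tgfb1* encode proteins that restrain immune responses. The TNF family genes *Tnf*, *Lta* and *Ltb* lie side by side on chromosome 17 and are made by many lymphocytes.

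After filtering, 6584 WT and 6359 DKO-severe cells were left, with medians of 5616.5 and 8066 UMIs per cell, and the matrices shared 0 barcodes. The Cd4 Foxp3-negative gate, a cell with UMIs of a Cd3 gene and *Cd4* and none of *Cd8a*, *Cd8b1* or *Foxp3*, held 1675 WT and 2407 DKO-severe cells. The Foxp3-positive gate, the same with *Foxp3*, held 64 and 331 cells, the Cd8 gate 3052 and 1735 cells, and the innate-like gate, defined by *Zbtb16*, the transcription factor of natural killer T cells, held 106 and 238 cells. The gates were checked against marker lists. The 6 regulatory T cell markers summed to 3651 (WT) and 3812 CPM (DKO-severe) in Foxp3-positive cells, most of it *Ikzf2* (2235 and 2623 CPM), while *Il2ra* was 490 and 163 CPM, *Foxp3* 200.4 and 120.1 CPM and *Lrrc32* 82.8 and 4.87 CPM. The 6 markers of natural killer T cells summed to 1803 and 1264 CPM in the innate-like gate. In Cd8 cells they summed to 671 and 1273 CPM, so in DKO-severe the sum did not set these gates apart. Most of the DKO-severe Cd8 sum was *Nkg7*, at 923 CPM against 398 CPM in innate-like cells. *Xcl1* was also higher in DKO-severe Cd8 cells, at 54.3 against 45.5 CPM. The other markers were higher in DKO-severe innate-like than Cd8 cells. *Klrb1c* was 94.5 and 14.2 CPM, *Cxcr6* 175 and 43.9 CPM and *Il2rb* 350 and 236 CPM, and the remaining marker was *Zbtb16*, which defines the gate. A cell without a *Foxp3* UMI may still make *Foxp3*, and the same 6 regulatory markers summed to 565 and 1510 CPM in the Cd4 Foxp3-negative gate, where *Foxp3* is at 0 by definition; their part in the differences below was not tested. Innate-like cells also passed the Cd4 Foxp3-negative gate in 20 WT and 87 DKO-severe cells, which were 36.6% of the DKO-severe innate-like cells. Granulocyte transcripts, which a TCRβ+ sort should not hold, summed over 6 markers to 85.2 CPM in Cd4 Foxp3-negative cells of WT and to 2832 CPM in those of DKO-severe, with none of the 6 at 0. The same sum was 76.2 and 3818 CPM in Foxp3-positive, 77.97 and 1408 CPM in Cd8 and 74.96 and 2819 CPM in innate-like cells, with 1 of the 6 at 0 in WT Foxp3-positive cells. Monocyte or macrophage markers summed to 76.7 and 507 CPM in Cd4 Foxp3-negative, 19.6 and 615 CPM in Foxp3-positive, 531 and 948 CPM in Cd8 and 1217 and 1444 CPM in innate-like cells, where *Lyz2* alone was 950 and 1176 CPM. The differences below were recomputed without cells holding 2 or more UMIs of B cell genes or of *Lyz2*, *Csf1r*, *S100a8* and *S100a9*. Of the log2 ratios, 33 stayed inside their counting interval and 4 did not, and of the share differences 31 stayed within both intervals and 9 did not. The part of such transcripts in the cells kept was not tested. Shares of cells are given at equal depth: cells with 3800 or more UMIs were thinned to that number and gated again, so a cell can fall in a gate on thinned counts and outside it on all counts. Levels are given as counts per 1000000 UMIs of the gate (CPM).

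In Cd4 Foxp3-negative cells, 6 of the 10 genes were 2-fold or more higher in DKO-severe than in WT, namely *Il21*, *Csf1*, *Il10*, *Ifng*, *Il2* and *Il4*, and 1 was 2-fold or more lower, *Lta*. Among all 13245 genes with 30 or more UMIs in this gate, 18.1% were as much higher and 5.93% as much lower. Over the 10 genes the log2 ratios had a median of 1.54, and over all genes of 0.14. *Tgfb1* and *Ltb* differed by less than 2-fold, with counting intervals clear of 0, and the interval of *Tnf* included 0.

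**Figure D1:**
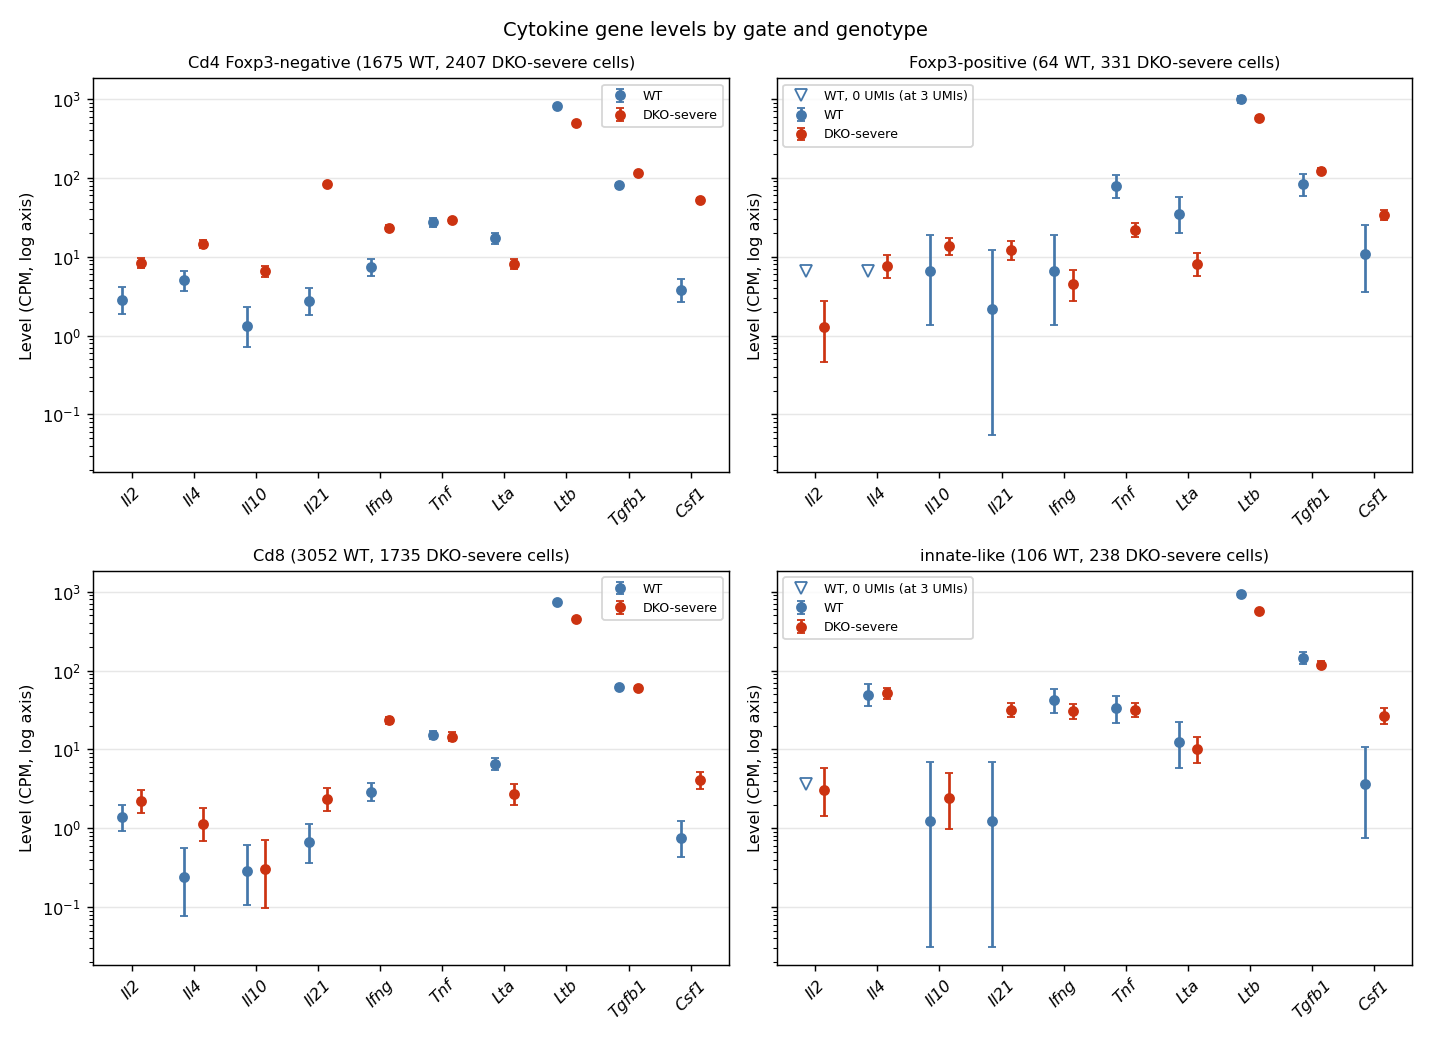
Level of each cytokine gene (CPM, log axis) in 4 gates, for the WT and the DKO-severe mouse, with exact 95% Poisson intervals of the summed counts; open triangles stand at 3 UMIs for a gene with 0 WT UMIs. In Cd4 Foxp3-negative cells *Il21* goes from 2.76 to 83.4 CPM, whereas in innate-like cells *Il4* is 49.2 and 51.7 CPM.

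*Il21* (ENSMUSG00000027718, chromosome 3, 37222759 to 37232636), the follicular helper cytokine that drives B cell responses, had 27 UMIs in WT and 1939 UMIs in DKO-severe Cd4 Foxp3-negative cells. Its level was 2.76 CPM (1.82 to 4.02) in WT and 83.4 CPM (79.7 to 87.2) in DKO-severe, a log2 ratio of 4.92 (4.37 to 5.52). At equal depth an *Il21* UMI was found in 10 of 1224 cells (0.817%, 0.392 to 1.497) from WT and 399 of 1846 (21.6%, 19.8 to 23.6) from DKO-severe, with no overlap of the intervals. In cells that should lack the transcript, 2 of 206 DKO-severe B-lineage cells (0.971%) and 0 of 124 myeloid cells (up to 2.42%) had one, at median depths before thinning of 6417.5 and 12928.5 UMIs against 7914 UMIs in the Cd4 gate. The DKO-severe share in the Cd4 gate was thus above the share in those cells. The WT share was not, but it was set against cells of the other mouse. WT held only 14 B-lineage and 2 myeloid cells at equal depth, 0 with *Il21*, which allows shares of up to 21.4% and 100%. The DKO-severe transcripts were spread over many cells: on all counts 761 cells had *Il21*, 280 of them a single UMI and 93 of them 5 or more, and the highest cell held 15 UMIs, or 0.774% of the sum.

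*Il2* (ENSMUSG00000027720, chromosome 3, 37120713 to 37125954), the T cell growth factor, is the gene next to *Il21* in this set, with 96804 bases between them. It had 28 WT and 196 DKO-severe UMIs in Cd4 Foxp3-negative cells, 2.86 CPM (1.90 to 4.14) against 8.43 CPM (7.29 to 9.70), a log2 ratio of 1.56 (0.98 to 2.18). The share of cells at equal depth was 1.14% (0.627 to 1.91) in WT and 1.52% (1.01 to 2.18) in DKO-severe, with overlapping intervals. On all counts, where the cells of this gate had medians of 7965 UMIs in DKO-severe and 5258 UMIs in WT, *Il2*-positive cells held 2.42 and 1.27 *Il2* UMIs on average. Of these, 11 DKO-severe cells and 0 WT cells held 5 or more, and 1 cell held 29 UMIs, or 14.8% of the DKO-severe sum. Without the highest cell of each mouse the log2 ratio was 1.55.

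The 250 bases before the start sites of *Il21*, its neighbour *Il2* and *Csf1*, the gene with the next largest ratio in this gate, are printed from RefSeq (GRCm38.p6, 5′ to 3′ on the gene's strand). Capitals mark GGAAA or its reverse complement TTTCC, the core letters of sites bound by NFAT, a factor that acts downstream of the T cell receptor.
Il21, chr3:37232637-37232886, minus strand: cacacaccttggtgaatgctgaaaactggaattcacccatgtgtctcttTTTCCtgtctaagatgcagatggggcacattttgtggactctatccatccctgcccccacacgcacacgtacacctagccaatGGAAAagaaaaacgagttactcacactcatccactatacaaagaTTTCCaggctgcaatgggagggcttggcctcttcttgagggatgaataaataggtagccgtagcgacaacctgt
Il2, chr3:37125955-37126204, minus strand: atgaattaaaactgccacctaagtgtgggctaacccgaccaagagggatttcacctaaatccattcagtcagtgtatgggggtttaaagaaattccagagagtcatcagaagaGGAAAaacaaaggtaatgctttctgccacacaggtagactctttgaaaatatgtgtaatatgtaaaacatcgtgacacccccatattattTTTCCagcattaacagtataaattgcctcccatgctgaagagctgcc
Csf1, chr3:107760470-107760719, minus strand: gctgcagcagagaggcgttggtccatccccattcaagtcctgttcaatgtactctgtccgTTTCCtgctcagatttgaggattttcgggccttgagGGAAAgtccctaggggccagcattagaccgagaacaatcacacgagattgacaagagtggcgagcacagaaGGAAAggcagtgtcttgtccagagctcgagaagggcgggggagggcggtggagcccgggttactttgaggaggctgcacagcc
The *Il21* and *Csf1* windows hold 3 such matches each and the *Il2* window holds 2. The core occurs in 8 of the 10 windows found for 9 of the 10 genes, and in 55.6% of 32851 windows of the same length, so it is common in windows of this kind. The AP-1 letters TGACTCA or TGAGTCA occur in 0 of the 10 windows and in 4.46% of all windows. CG pairs, the sites at which TET proteins act when methylated, number 5 in the *Il21* window, 2 in that of *Il2*, 10 in that of *Csf1* and 21 in that of *Tgfb1*, against a median of 6 over all windows; no methylation was measured here.

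*Csf1* (ENSMUSG00000014599, chromosome 3, 107741048 to 107760469), the growth factor of macrophages, had 37 WT and 1213 DKO-severe UMIs in Cd4 Foxp3-negative cells. Its level was 3.78 CPM (2.66 to 5.22) and 52.2 CPM (49.3 to 55.2), a log2 ratio of 3.79 (3.31 to 4.30). At equal depth the share with a UMI was 1.23% (0.687 to 2.01) in WT and 14.7% (13.1 to 16.4) in DKO-severe, against 1.46% of DKO-severe B-lineage and 3.23% of myeloid cells. *Csf1* and *Il21* were the only members of the 10 whose DKO-severe level exceeded WT by more than 10-fold in this gate, at 13.8-fold and 30.2-fold.

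*Il4* (ENSMUSG00000000869, chromosome 11, 53612460 to 53618665), which directs B cells and the type 2 response, was 5.01 CPM (3.71 to 6.62) in WT and 14.5 CPM (13.0 to 16.1) in DKO-severe, a log2 ratio of 1.53 (1.09 to 1.99). Its share at equal depth went from 0.899% (11 of 1224 cells) to 4.17% (77 of 1846 cells). *Il10* (ENSMUSG00000016529, chromosome 1, 131019845 to 131024970), an inhibitory cytokine, was 1.33 CPM (0.708 to 2.27) and 6.54 CPM (5.54 to 7.67), a log2 ratio of 2.30 (1.48 to 3.24) from only 13 WT UMIs. Its shares were 0.408% (0.133 to 0.951) and 1.95% (1.37 to 2.69). *Ifng* (ENSMUSG00000055170, chromosome 10, 118441046 to 118445894), the interferon that activates macrophages, was 7.36 CPM (5.76 to 9.27) and 23.1 CPM (21.1 to 25.1), a log2 ratio of 1.65 (1.29 to 2.02). Its shares were 2.29% (1.53 to 3.29) and 5.74% (4.72 to 6.90). On all counts 30 of 199 positive DKO-severe cells and 2 of 50 positive WT cells held 5 or more UMIs. The DKO-severe cells of the gate were deeper on all counts, at medians of 7965 against 5258 UMIs. The part of depth in that count was not tested. For these 3 genes neither the CPM intervals nor the share intervals of the mice overlapped. In DKO-severe B-lineage cells 1 of 206 had *Il4* at equal depth (0.012 to 2.67%), 1 had *Il10* (0.012 to 2.67%) and 2 had *Ifng* (0.118 to 3.46%). The DKO-severe shares of *Il4* and *Ifng* in the Cd4 gate had intervals above these, and the interval of *Il10* overlapped. On all counts 0 of 219 DKO-severe B-lineage cells had *Il10* (0 to 1.67%), so that 1 cell was in this gate only on thinned counts. In the Cd4 gate *Il10* was then detected in 3.95% (3.20 to 4.80), at median depths of 5191 UMIs in B-lineage and 7965 UMIs in Cd4 cells.

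None of the 3 TNF family genes was 2-fold or more higher. *Tnf* (ENSMUSG00000024401, chromosome 17, 35199367 to 35202007), a broad inflammatory cytokine, was 27.3 CPM (24.1 to 30.8) in WT and 29.1 CPM (27.0 to 31.4) in DKO-severe, a log2 ratio of 0.09 (-0.11 to 0.30). *Lta* (ENSMUSG00000024402, chromosome 17, 35203165 to 35205578), which lies 1157 bases from *Tnf* and encodes lymphotoxin alpha, was 17.2 CPM (14.7 to 19.99) and 8.13 CPM (7.01 to 9.38), a log2 ratio of -1.08 (-1.39 to -0.77). The share of cells with *Lta* was 5.72% in WT and 2.71% in DKO-severe. *Ltb* (ENSMUSG00000024399, chromosome 17, 35194507 to 35196305), whose product anchors lymphotoxin alpha at the cell surface, was 827 CPM (809 to 845) and 493 CPM (484 to 502), a log2 ratio of -0.75 (-0.79 to -0.70). *Ltb* was detected in most cells of either mouse, with shares at equal depth of 89.8% (WT) and 78.4% (DKO-severe). *Tgfb1* (ENSMUSG00000002603, chromosome 7, 25687002 to 25705077), which encodes TGF-β1, was 81.0 CPM (75.5 to 86.8) and 114 CPM (110 to 118), a log2 ratio of 0.49 (0.38 to 0.61), with shares of 24.3% and 31.9%.

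**Figure D2:**
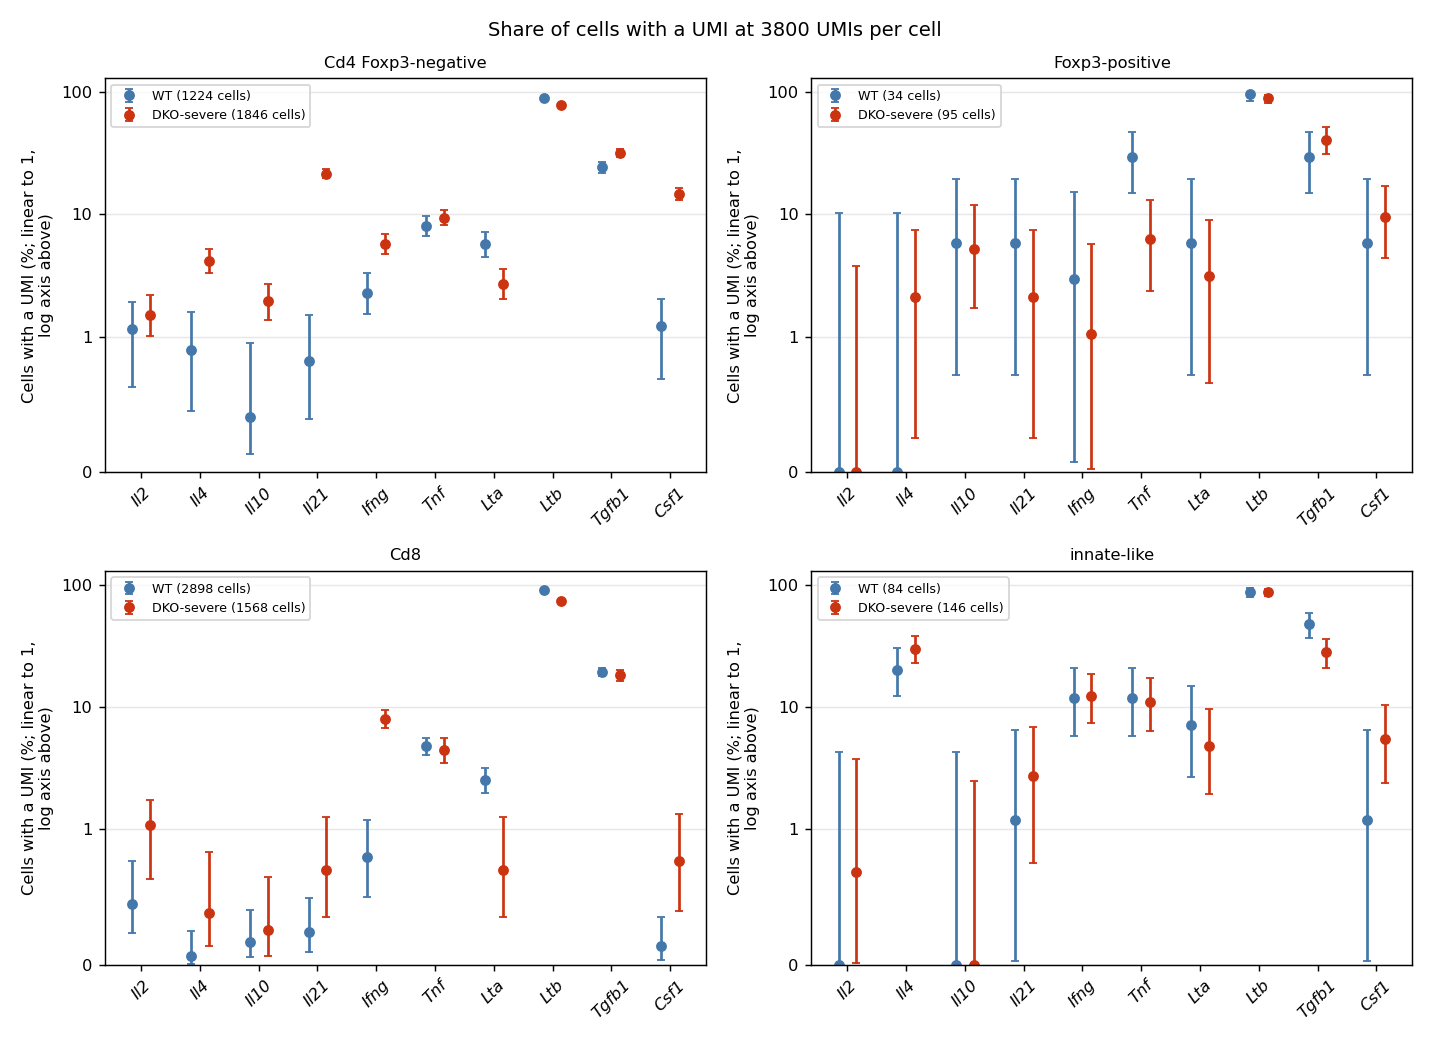
Share of cells with at least 1 UMI of each gene after thinning every cell to 3800 UMIs, by gate and mouse, with exact 95% binomial intervals (axis linear up to 1% and logarithmic above). *Il21* stands at 0.817% and 21.6% in Cd4 Foxp3-negative cells, and *Ifng* at 0.794% and 8.04% in Cd8 cells.

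The order of gates differed from gene to gene within the DKO-severe mouse. *Il21* was highest in Cd4 Foxp3-negative cells at 83.4 CPM, followed by innate-like cells at 31.7 CPM (25.6 to 38.9), Foxp3-positive cells at 12.1 CPM (9.15 to 15.6) and Cd8 cells at 2.36 CPM (1.68 to 3.23), and no neighbouring intervals in this order overlapped. The innate-like cells outside a Cd4 gate were at 15.2 CPM (9.40 to 23.2), which overlapped the Foxp3-positive cells, as did the shares at equal depth of all innate-like (2.74%, 0.751 to 6.87) and Foxp3-positive cells (2.11%, 0.256 to 7.40). *Csf1* went from 52.2 CPM in Cd4 Foxp3-negative to 33.9 CPM (28.9 to 39.6) in Foxp3-positive, 26.9 CPM (21.3 to 33.6) in innate-like and 4.05 CPM (3.14 to 5.15) in Cd8 cells, and the intervals of the Foxp3-positive and innate-like cells overlapped. *Il4* was highest in innate-like cells, at 51.7 CPM (43.8 to 60.7), then 14.5 CPM in Cd4 Foxp3-negative, 7.63 CPM (5.34 to 10.6) in Foxp3-positive and 1.15 CPM (0.692 to 1.80) in Cd8 cells. *Il10* was highest in Foxp3-positive cells, at 13.6 CPM (10.4 to 17.3), against 6.54 CPM in Cd4 Foxp3-negative cells, with 2.41 CPM (0.970 to 4.97) in innate-like and 0.303 CPM (0.098 to 0.706) in Cd8 cells. *Ifng* did not separate the Cd8 gate (23.4 CPM, 21.1 to 25.8) from Cd4 Foxp3-negative cells (23.1 CPM), and its innate-like level was 30.7 CPM (24.6 to 37.8).

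In Foxp3-positive cells, 8 of the 10 genes had 30 or more UMIs, of which 2 were 2-fold or more higher in DKO-severe (*Csf1* and *Il10*) and 2 as much lower (*Tnf* and *Lta*). Over 9832 genes of this gate, 10.2% were as much higher and 5.98% as much lower. The WT side of each value rested on 64 cells and 459046 UMIs, at which 3 UMIs are 6.54 CPM. *Tnf* had 36 WT and 104 DKO-severe UMIs, 78.4 CPM (54.9 to 109) against 22.0 CPM (18.004 to 26.7), a log2 ratio of -1.83 (-2.39 to -1.24). At equal depth *Tnf* was detected in 10 of 34 cells (29.4%, 15.1 to 47.5) from WT and 6 of 95 (6.32%, 2.35 to 13.2) from DKO-severe. One WT cell held 12 of the 36 *Tnf* UMIs. *Lta* was 34.9 CPM (19.9 to 56.6) and 8.05 CPM (5.70 to 11.1), a log2 ratio of -2.11 (-2.99 to -1.17), while its shares, 2 of 34 and 3 of 95 cells, had overlapping intervals. *Csf1* had 5 WT UMIs and 160 DKO-severe UMIs, a log2 ratio of 1.64 (0.39 to 3.28), and *Tgfb1* had a log2 ratio of 0.58 (0.10 to 1.09). *Il10*, which regulatory T cells use to restrain inflammation, had 3 WT UMIs and 64 DKO-severe UMIs, a log2 ratio of 1.05 (-0.56 to 3.37), and with a gate of 2 or more *Foxp3* UMIs the value was -0.93. *Il21* had 1 WT UMI and 57 DKO-severe UMIs, a log2 ratio of 2.47 from the counts (-0.07 to 7.80) and 0.89 with WT counted as 3 UMIs. On all counts the 24 *Il21*-positive DKO-severe cells of this gate had a median of 19105 UMIs, against 11170 in the 307 others. At equal depth the shares with *Il21*, 2 of 34 cells (5.88%) and 2 of 95 cells (2.11%), did not follow the levels, nor did those with *Il10*, 2 of 34 (5.88%) and 5 of 95 (5.26%), and both pairs of intervals overlapped. *Il4* had 0 WT UMIs and 36 DKO-severe UMIs, 1.17-fold higher with WT counted as 3 UMIs. The lower limit of its log2 ratio was -0.15, so the interval included no difference. *Ifng* had 3 and 21 UMIs, a log2 ratio of -0.55 (-2.30 to 1.83). *Il2*, which regulatory T cells are known to take up rather than make, had 0 WT and 6 DKO-severe UMIs, too few for a ratio, and at equal depth 0 of 34 and 0 of 95 cells had a UMI, which allows shares of up to 8.82% and 3.16%.

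In Cd8 cells, 8 of the 10 genes had 30 or more UMIs, of which 3 were 2-fold or more higher in DKO-severe (*Ifng*, *Csf1* and *Il21*) and 1 as much lower (*Lta*), against 4.99% higher and 3.51% lower of 12627 genes. *Ifng*, the signature cytokine of cytotoxic cells, had 61 WT and 386 DKO-severe UMIs, 2.91 CPM (2.22 to 3.73) against 23.4 CPM (21.1 to 25.8), a log2 ratio of 3.01 (2.61 to 3.42). Its share at equal depth was 23 of 2898 cells in WT (0.794%, 0.504 to 1.19) and 126 of 1568 cells in DKO-severe (8.04%, 6.74 to 9.49), with no overlap. The *Ifng* ratio was larger in Cd8 than in Cd4 Foxp3-negative cells (1.65, 1.29 to 2.02), and the intervals did not overlap; the difference between gates was not tested. *Csf1* had a log2 ratio of 2.41 (1.61 to 3.30), but 1 DKO-severe cell held 32 of its 67 UMIs, and without the highest cell of each mouse the ratio was 1.89. Its DKO-severe share of 0.765% (0.396 to 1.33) was not above that of B-lineage (1.46%) or myeloid cells (3.23%). *Il21* had 14 and 39 UMIs, a log2 ratio of 1.82 (0.91 to 2.82), and its DKO-severe share of 0.702% (0.351 to 1.25) was not above that in B-lineage cells. *Lta* was 6.53 CPM (5.48 to 7.71) in WT and 2.72 CPM (1.99 to 3.64) in DKO-severe, a log2 ratio of -1.26 (-1.78 to -0.77), and *Ltb* had a ratio of -0.70 (-0.74 to -0.66). For *Tnf* (-0.08, -0.33 to 0.16), *Tgfb1* (-0.03, -0.15 to 0.09) and *Il2* (0.70, -0.04 to 1.45) the interval included 0. *Il4*, with 5 and 19 UMIs, had a log2 ratio of 2.27 (0.80 to 4.05), and *Il10*, with 6 and 5 UMIs, of 0.08 (-1.97 to 2.06).

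In innate-like cells, 8 of the 10 genes had 30 or more UMIs, of which 2 were 2-fold or more higher (*Il21* and *Csf1*) and 0 as much lower, against 9.46% and 2.59% of 9258 genes. *Il4*, which natural killer T cells keep ready as transcript, was 49.2 CPM (35.1 to 66.9) in WT and 51.7 CPM (43.8 to 60.7) in DKO-severe, a log2 ratio of 0.07 (-0.44 to 0.61). At equal depth 20.2% of WT (12.3 to 30.4) and 30.1% of DKO-severe innate-like cells (22.8 to 38.3) had *Il4*, with overlapping intervals. *Ifng* was 41.8 CPM (28.9 to 58.4) and 30.7 CPM (24.6 to 37.8), a log2 ratio of -0.45 (-1.03 to 0.17), and its shares were 11.9% and 12.3%. *Il21* had 1 WT UMI and 92 DKO-severe UMIs, a log2 ratio of 4.69 from the counts (2.18 to 10.0) and 3.10 with WT counted as 3 UMIs. Under alternative processing the ratio ran from 0.98 to 3.46. On all counts the 35 *Il21*-positive DKO-severe cells of this gate had a median of 20168 UMIs, against 7716 in the 203 others. Of the 92 UMIs, 71 lay in the 101 innate-like cells that also passed a Cd4 gate (46.8 CPM, with 21 UMIs and 15.2 CPM in the other 137 cells), and at equal depth the *Il21* share was 4 of 146 cells (2.74%, 0.751 to 6.87), with an interval overlapping that of WT. *Csf1* followed a like pattern, with 62 of its 78 DKO-severe UMIs in the 101 cells of a Cd4 gate, and a log2 ratio of 2.87 (1.27 to 5.18) over 3 WT UMIs. *Il4* did not: 60 of its 150 UMIs lay in those 101 cells and 90 in the others. *Ltb* had a log2 ratio of -0.73 (-0.85 to -0.60), *Tgfb1* of -0.29 (-0.60 to 0.02), *Lta* of -0.30 (-1.38 to 0.90) and *Tnf* of -0.07 (-0.70 to 0.61). The share of innate-like cells with *Tgfb1* at equal depth was 47.6% in WT (36.6 to 58.8) and 28.1% in DKO-severe (21.0 to 36.1), without overlap, although the CPM interval of the ratio included 0. *Il2* had 0 and 9 UMIs and *Il10* 1 and 7 UMIs, and no ratio against 3 UMIs could be given for either.

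**Figure D3:**
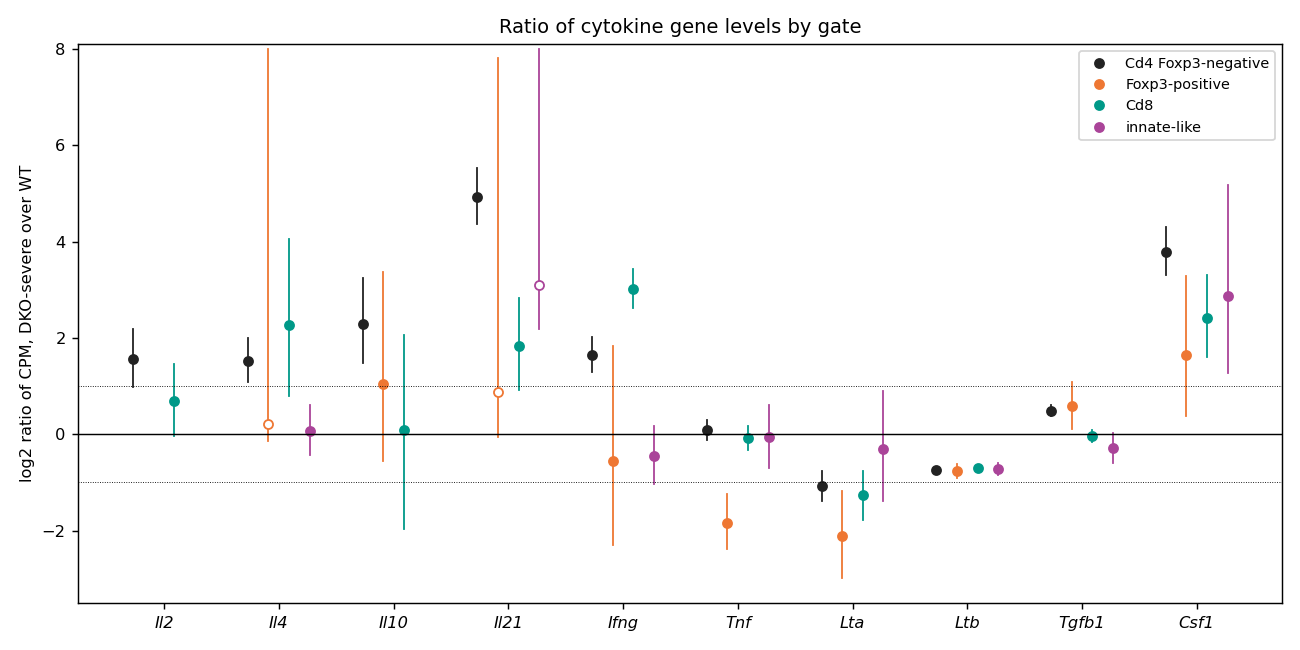
log2 ratio of CPM, DKO-severe over WT, for each gene and gate, with exact 95% intervals of the counts (cut at 8); open circles use a WT count raised to 3 UMIs, dotted lines mark 2-fold, and a ratio is left out where 3 UMIs are more than the other mouse's level. *Ltb* lies between -0.77 and -0.70 in all 4 gates, whereas *Ifng* runs from 3.01 in Cd8 to -0.55 in Foxp3-positive cells.

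*Ltb* was the steadiest of the 10 genes across gates, with log2 ratios of -0.75, -0.76, -0.70 and -0.73 in Cd4 Foxp3-negative, Foxp3-positive, Cd8 and innate-like cells. The level of *Csf1* was above WT in all 4 gates with intervals clear of 0, over 5 WT UMIs in Foxp3-positive and 3 in innate-like cells. At equal depth its share intervals overlapped in Foxp3-positive cells (2 of 34 WT and 9 of 95 DKO-severe) and in innate-like cells (1 of 84 and 8 of 146). The level of *Lta* was below WT in 3 gates with intervals clear of 0, the innate-like gate being the exception.

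The question of whether single cells carried several cytokines was addressed at equal depth in Cd4 Foxp3-negative DKO-severe cells, of which 399 had *Il21* and 1447 did not (medians of 8250 and 7789 UMIs before thinning). *Il4* was detected in 22 of the 399 cells (5.51%, 3.49 to 8.23) and in 55 of the 1447 cells (3.80%, 2.88 to 4.92). *Il10* was detected in 10 *Il21*-positive cells (2.51%, 1.21 to 4.56) and in 1.80% of *Il21*-negative cells (1.18 to 2.62). *Ifng* was detected in 25 *Il21*-positive cells (6.27%, 4.10 to 9.11) and in 5.60% of *Il21*-negative cells (4.47 to 6.91). All 3 shares were higher in *Il21*-positive cells by 0.67 to 1.71 points, and in each case the 2 intervals overlapped. Without thinning, with deeper *Il21*-positive cells, the *Il4* intervals were apart, at 11.7% (9.50 to 14.2) and 6.93% (5.75 to 8.26). Seen from the other side, 28.6% of *Il4*-positive (18.8 to 40.0), 27.8% of *Il10*-positive (14.2 to 45.2) and 23.6% of *Ifng*-positive cells (15.9 to 32.8) had *Il21*, against 21.6% of all cells of the gate. The number of cells with both genes was 1.32 times the product of the 2 shares for *Il4*, 1.29 times for *Il10* and 1.09 times for *Ifng*.

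At equal depth *Csf1* was the one partner of *Il21* among the 10 genes whose intervals did not overlap. It was detected in 107 *Il21*-positive cells (26.8%, 22.5 to 31.5) and in 165 *Il21*-negative cells (11.4%, 9.81 to 13.2), 1.82 times the product of the shares, and 39.3% of *Csf1*-positive cells had *Il21* (33.5 to 45.4). *Tnf* was detected in 12.8% (9.67 to 16.5) and 8.50% (7.11 to 10.1), with intervals that overlapped slightly, and *Tgfb1* in 36.6% (31.9 to 41.5) and 30.6% (28.2 to 33.1), also with overlap. *Ltb* was lower in *Il21*-positive cells, 73.4% (68.8 to 77.7) against 79.8% (77.6 to 81.8), as was *Lta* with 1.75% (0.708 to 3.58) against 2.97% (2.16 to 3.98), and both pairs of intervals overlapped. In WT only 10 cells had *Il21*, of which 3 had *Csf1* and 5 had *Tgfb1*.

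**Figure D4:**
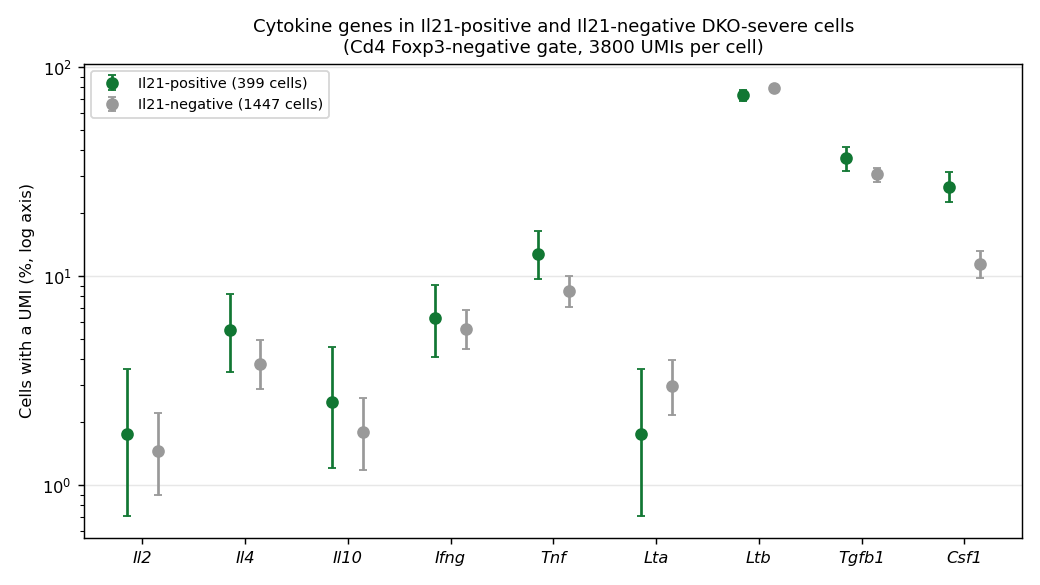
Share of cells with a UMI of the other 9 genes (log axis) among 399 *Il21*-positive and 1447 *Il21*-negative DKO-severe cells of the Cd4 Foxp3-negative gate at 3800 UMIs per cell, with exact 95% binomial intervals. *Csf1* is the pair whose intervals are clearly apart (26.8% and 11.4%).

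Counted over 6 genes (*Il2*, *Il4*, *Il10*, *Il21*, *Ifng* and *Tnf*) at equal depth, most cells had none. In the Cd4 Foxp3-negative gate at least 1 was found in 12.6% (WT) and 36.4% (DKO-severe), and exactly 2 in 9 of 1224 (0.735%, 0.337 to 1.39) and 114 of 1846 cells (6.18%, 5.12 to 7.37). Cells with 3 or more numbered 2 in WT (0.163%) and 16 in DKO-severe (0.867%, 0.496 to 1.40). The part of the higher single-gene shares in these counts was not tested. In Cd8 cells the share with exactly 2 was 0.138% in WT (0.038 to 0.353) and 0.829% in DKO-severe (0.442 to 1.41), and *Ifng* and *Tnf* were found together in 8 DKO-severe cells. In innate-like cells the shares with exactly 2 were 4.76% (1.31 to 11.7) and 7.53% (3.82 to 13.1), with overlap, and 3 of 146 DKO-severe cells had 3 or more. In the Foxp3-positive gate exactly 2 genes were found in 3 of 34 cells from WT and in 0 of 95 from DKO-severe. The intervals, 1.86 to 23.7% for WT and 0 to 3.81% for DKO-severe, overlapped, so no difference in either direction was shown.

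**Figure D5:**
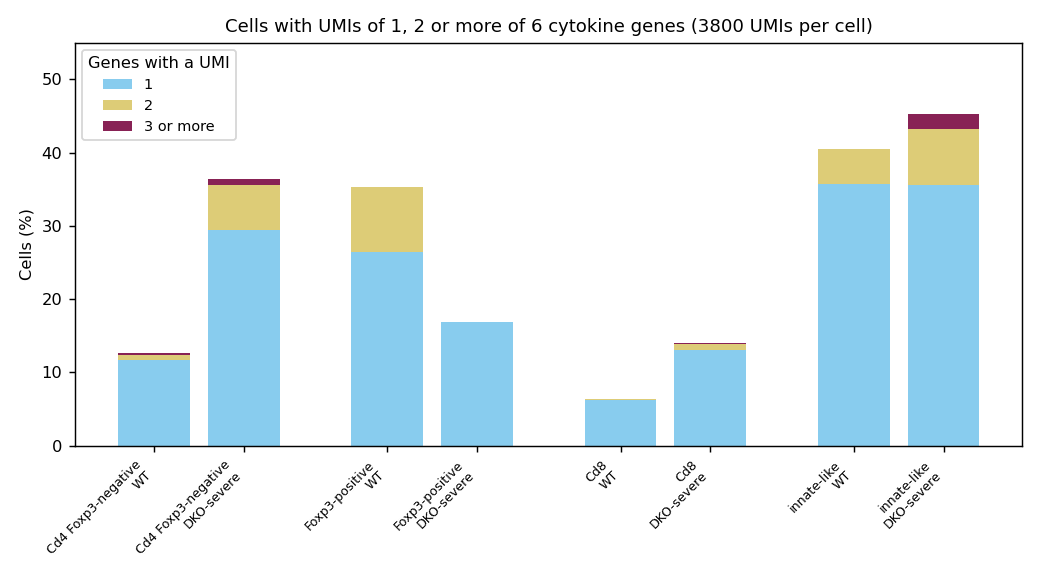
Share of cells (%) with UMIs of 1, 2 or 3 or more of 6 cytokine genes at 3800 UMIs per cell, stacked, by gate and mouse. The bar of Cd4 Foxp3-negative cells reaches 12.6% in WT and 36.4% in DKO-severe, and that of Foxp3-positive WT cells rests on 34 cells.

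*Il21*-positive DKO-severe cells were also compared by markers of T follicular helper cells. *Pdcd1*, which encodes the PD-1 receptor, was detected in 37.8% of *Il21*-positive (33.1 to 42.8) and 25.1% of *Il21*-negative cells (22.9 to 27.4). *Cxcr5*, the homing receptor for B cell follicles, was detected in 19.8% (16.0 to 24.1) and 11.7% (10.1 to 13.5), *Icos* in 83.0% (78.9 to 86.5) and 61.2% (58.6 to 63.7), and *Tox2* in 45.1% (40.2 to 50.1) and 23.7% (21.5 to 26.0). *Bcl6*, the transcription factor that defines the follicular helper fate, was detected in 28.3% (23.9 to 33.0) and 27.5% (25.2 to 29.9), so 4 of the 5 other markers had intervals apart and *Bcl6* did not. Markers of other lists differed too. Of the regulatory T cell list *Ikzf2* was detected in 74.2% (69.6 to 78.4) and 54.3% (51.7 to 56.9) and *Ctla4* in 73.2% (68.5 to 77.5) and 53.6% (50.9 to 56.2). The intervals of *Il2ra*, *Tnfrsf18* and *Lrrc32* overlapped, with *Il2ra* and *Tnfrsf18* higher and *Lrrc32* lower in *Il21*-positive cells. Of the natural killer T list *Il2rb* was detected in 48.6% (43.6 to 53.6) and 40.6% (38.1 to 43.2). All other genes of that list had overlapping intervals, with *Klrb1c* and *Nkg7* higher and *Zbtb16*, *Cxcr6* and *Xcl1* lower in *Il21*-positive cells. Of the granulocyte, monocyte and B-lineage lists, with 6 genes each, 2 genes had intervals apart, the B cell factor *Pax5* with 7.27% (4.92 to 10.3) and 2.35% (1.63 to 3.27), and *Ly6c2* with 4.26% (2.50 to 6.73) and 9.68% (8.20 to 11.3). Most *Il21*-positive cells, 248 of 399, had no *Pdcd1* UMI. Within the Cd4 Foxp3-negative gate, *Il21* was detected in 151 of 514 *Pdcd1*-positive DKO-severe cells (29.4%, 25.5 to 33.5) and in 248 of 1332 *Pdcd1*-negative cells (18.6%, 16.6 to 20.8), against 3 of 52 and 7 of 1172 cells in WT. *Ifng* was detected in 10.7% (8.16 to 13.7) and 3.83% (2.86 to 5.004) of *Pdcd1*-positive and *Pdcd1*-negative DKO-severe cells, and *Csf1* in 20.8% (17.4 to 24.6) and 12.4% (10.7 to 14.3). *Il4* was detected in 4.67% (3.01 to 6.87) of *Pdcd1*-positive and 3.98% (2.99 to 5.17) of *Pdcd1*-negative DKO-severe cells, with overlap, but in WT in 5 of 52 (9.62%, 3.20 to 21.0) and 6 of 1172 cells (0.512%, 0.188 to 1.11), without overlap.

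Over all genes, the 5 whose share at equal depth differed most between *Il21*-positive and *Il21*-negative DKO-severe cells were *Ralyl*, *B3galt1*, *Cntn5*, *Cd200* and *Tbc1d4*. *Ralyl*, which encodes an RNA-binding protein, was detected in 97.7% of *Il21*-positive and 50.1% of *Il21*-negative cells. *B3galt1*, which encodes a galactosyltransferase, was detected in 76.9% and 38.8%, and *Cntn5*, which encodes a contactin known from neurons, in 58.9% and 22.6%. *Cd200*, which encodes a surface glycoprotein that follicular helper cells carry, was detected in 68.2% and 33.1%, and *Tbc1d4*, which encodes a Rab GTPase-activating protein, in 89.7% and 55.9%. These genes were picked for the difference in the same cells, so the values are a description.

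Beyond the 10 genes, 20 of 36 other cytokine and chemokine genes had 30 or more UMIs in Cd4 Foxp3-negative cells, of which 13 were 2-fold or more higher in DKO-severe and 0 as much lower, against 18.1% and 5.93% of all genes, with a median log2 ratio of 1.77. The chemokines *Ccl3* (4.09 and 293 CPM, log2 ratio 6.16), *Ccl4* (11.8 and 600 CPM, 5.67) and *Ccl5* (121 and 1411 CPM, 3.55), which attract leukocytes, were among the largest. *Lif*, an interleukin 6 family cytokine, had 0 WT UMIs and 216 DKO-severe UMIs, 30.3-fold higher with WT counted as 3 UMIs. The lower limit of its log2 ratio was 4.61. *Areg*, a growth factor of tissue repair, was 2.25 and 20.6 CPM (3.19), and *Il1b*, which granulocytes and macrophages make, had 4 and 68 UMIs (2.84, 1.42 to 4.75). In the other gates 5 of 15 listed genes were as much higher in Foxp3-positive, 6 of 15 in Cd8 and 5 of 13 in innate-like cells, against 10.2%, 4.99% and 9.46% of all genes. Those as much lower numbered 0, 0 and 1, against 5.98%, 3.51% and 2.59% of all genes. The 1 was *Xcl1* in innate-like cells (123 and 45.5 CPM, -1.43).

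Of 15 receptor genes for the 10 cytokines, 5 were 2-fold or more higher and 3 as much lower in DKO-severe Cd4 Foxp3-negative cells, against 18.1% and 5.93% of all genes, with a median log2 ratio of 0.06. Those higher were *Ltbr* (2 and 37 UMIs, log2 ratio 2.96 from the counts), *Il10ra* (11.9 and 46.1 CPM, 1.96), *Csf1r* (2.97 and 10.8 CPM, 1.86), which is a myeloid gene, *Tnfrsf1b* (21.6 and 71.5 CPM, 1.73) and *Il2rb* (54.5 and 176 CPM, 1.69). Those lower were *Tgfbr2* (321 and 101 CPM, -1.67), which encodes a TGF-β receptor chain, *Ifngr2* (52.4 and 16.9 CPM, -1.63) and *Il4ra* (48.4 and 16.0 CPM, -1.60). The receptor for the cytokine with the largest ratio, *Il21r*, was 105 and 110 CPM, a log2 ratio of 0.06 (-0.04 to 0.17). Of 14 receptor genes measured in Foxp3-positive cells, 2 were 2-fold or more higher and 5 lower, against 10.2% and 5.98% of all genes. For Cd8 cells the numbers were 2 and 1 of 14, against 4.99% and 3.51%, and for innate-like cells 0 and 0 of 14, against 9.46% and 2.59%.

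Of 12 transcription factor genes known to act on these cytokine genes, 7 were 2-fold or more higher and 0 as much lower in the same gate, against 18.1% and 5.93% of all genes, with a median log2 ratio of 1.05. *Maf*, which binds the *Il21*, *Il4* and *Il10* genes, was 59.7 and 464 CPM (log2 ratio 2.96), *Irf4* 12.4 and 47.7 CPM (1.95), and *Batf* 45.6 and 139 CPM (1.60). *Eomes*, a factor of *Ifng* expression, was 7.67 and 20.8 CPM (1.44), *Prdm1* 5.52 and 11.9 CPM (1.11), and *Nfatc1* 86.2 and 182 CPM (1.07). In the other gates 4 of 11 (Foxp3-positive), 3 of 12 (Cd8) and 2 of 12 (innate-like) were 2-fold or more higher, against 10.2%, 4.99% and 9.46% of all genes. In each of these gates 0 were as much lower, against 5.98%, 3.51% and 2.59% of all genes.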

How the data were processed

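The authors sequenced 1 hashtagged 3' library (10x Chromium v3.1) of sorted T cells from 1 WT and 1 DKO-severe mouse and, per the study's methods, processed it with Cell Ranger and Seurat against mm10; they deposited raw UMI counts per gene and barcode as 1 matrix per mouse. Raw counts were used throughout.

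Barcodes with 500 or more genes, at most 10% mitochondrial UMIs and the hashtag of their matrix were kept, which removed 185 WT and 396 DKO-severe barcodes of 7189 and 7161. Scrublet (scanpy 1.11.5) marked 0 doublets in either matrix by its own threshold, so the 6% of barcodes with the highest scores were removed, 420 and 406. Totals were 45294779 and 69692053 UMIs before filtering. No deposited cell annotation was used; cells were gated on the UMIs of marker genes and not clustered. For shares, cells under 3800 UMIs (688 WT, 476 DKO-severe) were left out and the others thinned to that number.

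Counts were summed per gate and mouse and divided by the gate's total (CPM). Intervals are exact at 95% (binomial for shares, Poisson for levels, conditional binomial for ratios) and cover counting error only. Ratios raise a count under 3 UMIs to 3, and a share of 0 is read with the limit that 3 counts allow. A gene was called by fold alone, at 2-fold or more among genes with 30 or more UMIs over both mice. The scripts were tested on simulated counts. The 10 genes were described in every gate, and from each list of other cytokines, receptors and transcription factors up to 6 genes per direction were named by their ratio in Cd4 Foxp3-negative cells. The members and the lists were chosen with earlier results of these data known. Coordinates and promoter sequences are from RefSeq GRCm38.p6, the build of mm10; *Il10* was without a promoter entry in the table used here.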

Additional observations from a re-analysis of the deposited data

Results flagged for a closer look

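T cells outside the 4 gates have a Cd3 gene UMI but neither or both of *Cd4* and the Cd8 genes, and no *Zbtb16*. They numbered 1640 WT and 1926 DKO-severe cells at equal depth, and 1681 and 1432 cells on all counts. They enter no share at equal depth above. Some of the 1926 cells were in a gate on all counts, however, where their UMIs enter the levels. For 5 of the 10 genes the share at equal depth was higher in DKO-severe, with intervals apart. *Il21* was detected in 9.09% of the DKO-severe cells (7.84 to 10.5) and 0.427% of the WT cells, and *Csf1* in 9.09% (7.84 to 10.5) and 0.732%. *Il4* was detected in 4.31% (3.45 to 5.31) and 0.549%, *Il10* in 1.30% (0.842 to 1.91) and 0.183%, and *Tgfb1* in 31.0% (28.9 to 33.1) and 23.7%. On all counts *Ifng* was higher in level, 7.88 CPM (6.18 to 9.91) in WT and 14.8 CPM (12.7 to 17.0) in DKO-severe, a log2 ratio of 0.91 (0.51 to 1.32). Its shares at equal depth, 2.01% (1.39 to 2.81) and 3.48% (2.71 to 4.40), overlapped. In the cells outside the gates on all counts, *Il2* had 80 WT UMIs and 21 DKO-severe UMIs, but 1 WT cell held 64 of the 80 and the next highest held 2.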

How the results depend on the processing

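No paired analysis was possible because each genotype is 1 mouse. For the same reason no replicate could be left out. With the 10 alternatives tried on 37 ratios, 316 of 354 values stayed inside the counting interval of the reported ratio, and 0 ratios whose interval excluded 0 changed sign. The ratio of *Il21* in Cd4 Foxp3-negative cells ran from 3.51, with a pseudocount of 5 CPM, to 5.20. That pseudocount, which by construction pulls low genes towards 0, left 3 genes higher and 0 lower in Cd4 Foxp3-negative cells and 1 higher and 0 lower in Cd8 cells. Equal weight per cell left 0 lower in Cd4 Foxp3-negative and 1 higher in innate-like cells. In Foxp3-positive cells 0 genes were 2-fold higher with a gate of 2 or more UMIs, 0 higher and 1 lower with gates on thinned counts, 1 higher without cells holding B or myeloid transcripts, 1 higher with immunoglobulin, haemoglobin, mitochondrial and ribosomal protein genes out of the total, and 1 higher and 1 lower with a minimum of 100 UMIs. That minimum, which tests fewer genes, left 1 higher in Cd8 and 0 in innate-like cells, and 1 remained in innate-like cells with gates on thinned counts or without cells holding B or myeloid transcripts. Leaving the abundant gene classes out of the total shifted every ratio by -0.16 in Cd4 Foxp3-negative, -0.11 in Foxp3-positive, -0.07 in innate-like and -0.01 in Cd8 cells. Without thinning, *Il21*-positive minus *Il21*-negative DKO-severe cells differed by 4.77 points for *Il4*, 2.49 for *Il10* and 1.17 for *Ifng*, at median depths of 9102 and 7488 UMIs, and the intervals of *Il4* were then apart. Apart from the pseudocount, the minimum and thinning, the cause of these shifts was not tested. Of 230 share differences 153 stayed within both intervals, and of the other 77, 29 came from no thinning and 28 from thinning to 2500 UMIs. WT Foxp3-positive and innate-like values rest on 64 and 106 cells.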
